A study of Mus musculus with 6 samples.

Results

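The G1 cyclins and their kinases were described in bulk RNA-seq of healing flexor digitorum longus (FDL) tendons of the mouse hind paw. The 10 genes were *Ccnd1*, *Ccnd2*, *Ccnd3*, *Ccne1*, *Ccne2*, *Cdk2*, *Cdk4*, *Cdk6*, *Cdk14* and *Rb1*, taken by symbol from a deposited table of 53819 genes, and all 10 were found and passed the filter on low counts. The study transected and repaired the FDL tendon of mice aged 10 to 12 weeks and compared 3 tendons of Scx-Cre+; DTR F/+ mice (DTRScxLin) with 3 of Scx-Cre-; DTR F/+ littermates (WT), 1 tendon per library. Both genotypes carried the floxed Rosa-DTR allele and both received diphtheria toxin (DT) at 100 ng daily for 5 days, from D14 to D18 post-surgery. Only DTRScxLin mice expressed Cre, under a non-inducible *Scx* driver that marks every cell with *Scx* expression in its history, so the toxin targeted a broad Scx-lineage pool. Tendons were harvested at D28 post-surgery according to the extraction protocol, whereas the titles of the samples place D28 after depletion. Animals of both sexes were used, and replicate numbers were not stated to join animals.

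In G1, mitogens induce D-type cyclins, which bind CDK4 and CDK6 and begin to phosphorylate RB1, the pocket protein that holds E2F transcription factors in check. Released E2F switches on the E-type cyclins, which with CDK2 complete the phosphorylation of RB1 and start DNA replication. CDK14 binds cyclin Y at the plasma membrane and phosphorylates the Wnt co-receptor LRP6. In tendon, resident fibroblasts rarely divide, whereas injury is followed by a proliferative phase of healing.

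The libraries held 42744138 to 48854310 counts on genes. *Scx* had 2202 to 3064 normalized counts in WT and 3407 to 3532 in DTRScxLin libraries, and the tendon marker *Tnmd* had at least 50514 in every library. A list of 12 tendon cell markers held 4.46% to 5.25% of WT counts and 5.09% to 6.19% of DTRScxLin counts. A list of 30 skeletal muscle genes, 29 of them fitted lower in DTRScxLin tendons, took 3.21%, 2.95% and 2.34% of the library in WT tendons 1, 2 and 3 against 0.409%, 2.84% and 0.769% in DTRScxLin tendons 1, 2 and 3, so DTRScxLin replicate 2 stood with the WT libraries in muscle share. On the first principal component of log2 CPM (60.2% of the variance), WT replicates 1, 2 and 3 stood at -80.5, -65.8 and 43.2. DTRScxLin replicates 1, 2 and 3 stood at 67.6, 47.9 and -12.4, so WT replicate 3 lay within the DTRScxLin range. Keratinocyte markers held 0.373%, 0.232% and 0.0101% in WT replicates 1, 2 and 3 and 0.00453% to 0.0413% in DTRScxLin libraries. In WT and DTRScxLin libraries, adipocyte markers held 0.0317% to 0.0370% and 0.0184% to 0.0325%, erythroid markers 0.00963% to 0.0217% and 0.00549% to 0.00891%, and Schwann cell markers 0.0629% to 0.115% and 0.0455% to 0.0805%. Macrophage markers (0.389% to 0.478% over the 6 libraries), lymphoid markers (0.0137% to 0.0189%) and endothelial markers (0.0844% to 0.111%) overlapped between the genotypes. So did the lists above, except the erythroid markers, which were lower in each DTRScxLin library than in each WT library. *Xist*, the X-inactivation transcript of female cells, had at most 4.12 normalized counts in WT replicates 1 and 3 and DTRScxLin replicate 1 and at least 46425 in the others, in which the Y-linked *Ddx3y* had 0. With *Xist* as a covariate each member kept its direction and its side of the threshold.

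Of the 10 genes, 9 were fitted higher in DTRScxLin than in WT tendons and *Rb1* lower, against 51.5% of all 17496 genes tested fitted higher. Their median log2 fold change was 0.37, beside 0.01 over all genes tested. By edgeR's quasi-likelihood test with Benjamini-Hochberg adjustment over all genes, 0 of the 10 and 0% of all genes passed an adjusted p of 0.05. At an unadjusted p under 0.05, 5 of the 10 passed and all 5 were higher (*Ccnd2*, *Cdk4*, *Cdk6*, *Ccne2* and *Cdk14*), beside 5.52% of all genes in that direction. Each DTRScxLin library was above each WT library for 3 of the 10 (*Cdk6*, *Ccne1* and *Cdk14*), beside 8.96% of all genes, and none was below throughout, beside 7.85%. DESeq2, the tool of the study, called *Cdk6* and *Cdk14* higher and none of the other members, beside 1.12% of the genes it tested called higher and 2.65% called in either direction. The study drew *Cdk6* and *Cdk14* as cell cycle genes raised in these same libraries. Their calls, and their part in the counts and the median above, are therefore not independent evidence of a difference. Without them, *Ccne1* alone was separate, and *Ccnd2*, *Cdk4* and *Ccne2* had an unadjusted p under 0.05 by edgeR. The 10 genes were also chosen with earlier results of these data known. In bulk tissue, more RNA per cell and more cells of an expressing type cannot be told apart. Levels below are normalized counts, which are counts scaled by TMM to a library of average size, and the 3 values of a genotype are given in the order of replicates 1, 2 and 3. Differences are log2 fold changes of DTRScxLin over WT ± SE, with the adjusted p of edgeR's quasi-likelihood test where no other tool is named.

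**Figure D1:**
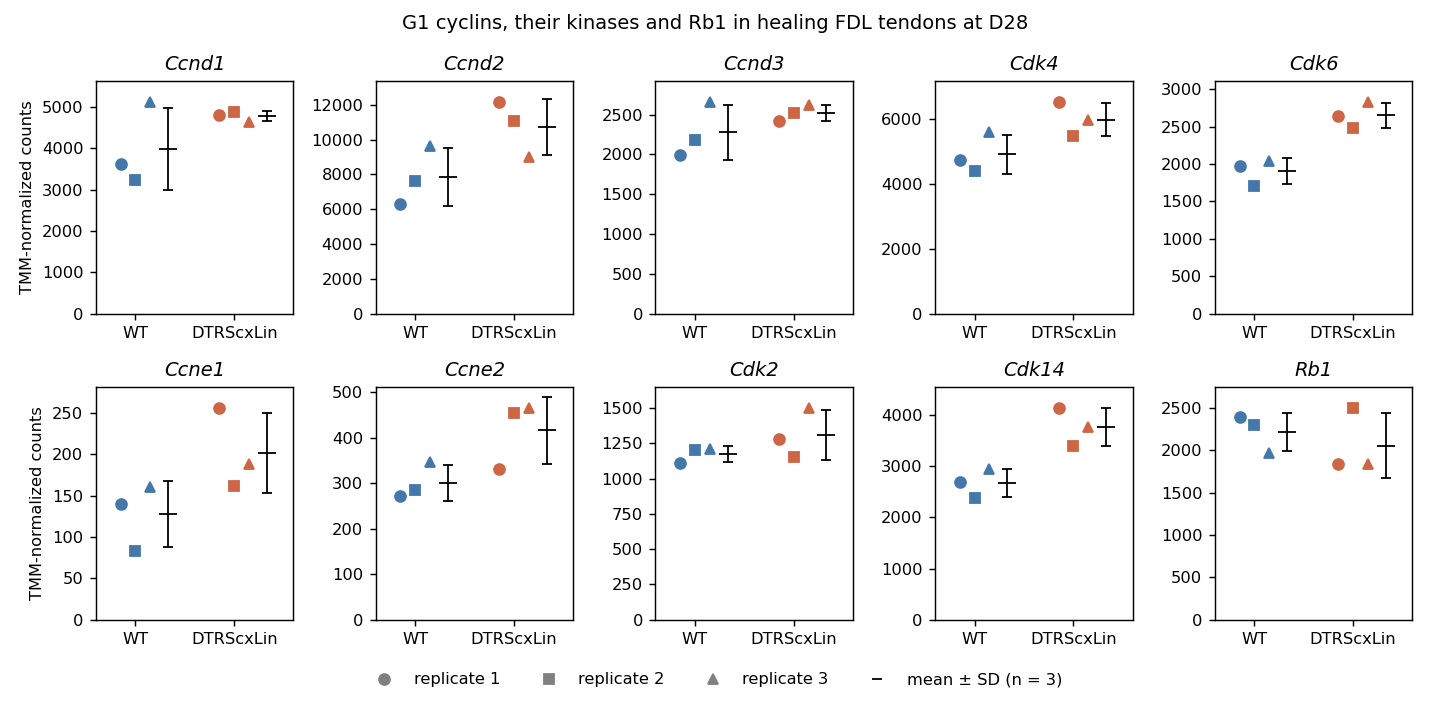
TMM-normalized counts of each of the 10 genes (y axis, from 0) in the 3 WT and 3 DTRScxLin libraries, with replicates 1 to 3 as circle, square and triangle and the mean ± SD (n = 3) beside them. The groups do not overlap for *Cdk6* and *Cdk14*, and in *Ccne1* the margin is 160 against 162 normalized counts.

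The D-type cyclins are the mitogen-induced regulatory subunits of CDK4 and CDK6. *Ccnd2* had the largest fitted difference of the family, and *Ccnd1* and *Ccnd3* had smaller ones. *Ccnd2* stood at 6284, 7627 and 9615 normalized counts in the WT libraries, against 12153, 11098 and 8990 in the DTRScxLin libraries. DTRScxLin replicates 1 and 2 lay above all WT libraries, and replicate 3 lay below WT replicate 3. For *Ccnd2* the fitted log2 fold change was 0.45 ± 0.18 (SE, 95% interval 0.04 to 0.87, edgeR adjusted p = 0.441).

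*Ccnd1* stood at 3614, 3230 and 5117 normalized counts in the WT libraries, against 4815, 4880 and 4635 in the DTRScxLin libraries. The DTRScxLin libraries were tightly grouped, with a coefficient of variation of 2.66% against 25.0% in WT, and WT replicate 3 was the highest of all 6. The log2 fold change was 0.26 ± 0.17 (SE, 95% interval -0.13 to 0.65, edgeR adjusted p = 0.572). It was 0.48 without WT replicate 3 and 0.13 without WT replicate 2. *Ccnd3* had the same arrangement, at 1994, 2181 and 2656 normalized counts in the WT libraries against 2424, 2521 and 2617 in the DTRScxLin libraries. Its log2 fold change was 0.15 ± 0.12 (SE, 95% interval -0.12 to 0.41, edgeR adjusted p = 0.645), and it was 0.27 without WT replicate 3 and 0.06 without WT replicate 1.

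The makeup of the D-type cyclins was compared as shares of their summed level per kilobase of median coding transcript, which do not depend on scaling between libraries. *Ccnd2* took 68.4% ± 1.82 in WT and 72.2% ± 3.51 in DTRScxLin tendons (SD, n = 3 each), *Ccnd3* 22.4% ± 1.12 and 19.2% ± 2.79, and *Ccnd1* 9.25% ± 1.221 and 8.61% ± 0.725. The sizes of these shares depend on the length used, and *Ccnd2* took 36.6% in WT and 40.6% in DTRScxLin tendons with the longest transcript and 43.0% and 46.6% with the union of exons, where *Ccnd1* took 43.5% and 41.6%. In all 3 shares the groups overlapped with each length. The *Ccnd2* share differed by 3.83 percentage points (two-sided exact permutation p = 0.3, adjusted p = 0.5 over 5 shares). The design of 3 against 3 cannot give a two-sided permutation p under 0.1.

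*Cdk6* and *Cdk4* encode the kinases that D-type cyclins activate. *Cdk6* stood at 1968, 1708 and 2039 normalized counts in the WT libraries, against 2641, 2485 and 2826 in the DTRScxLin libraries. The lowest DTRScxLin library was thus above the highest WT library, and the spread within each genotype was small (coefficients of variation of 9.15% and 6.43%). The level was 1.39-fold higher (95% interval 1.19 to 1.63), which is 0.48 ± 0.10 on the log2 scale. The adjusted p was 0.274 by edgeR, 0.0127 by DESeq2 and 0.0462 by edgeR without DTRScxLin replicate 2, when 0.572% of all genes were called higher. Across 18 other fits the log2 fold change of *Cdk6* stayed between 0.40 and 0.53.

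The second kinase gene, *Cdk4*, stood at 4754, 4394 and 5591 normalized counts in the WT libraries against 6525, 5484 and 5962 in the DTRScxLin libraries. Only DTRScxLin replicate 2 fell within the WT range. The log2 fold change was 0.29 ± 0.11 (SE, 95% interval 0.02 to 0.55, edgeR adjusted p = 0.447). With the skeletal muscle level of the libraries as a covariate it was 0.13. Among DTRScxLin libraries only replicate 2 had a muscle share inside the WT range, so this covariate nearly follows genotype. Each fit with it below rests largely on that library and cannot separate muscle from genotype. *Cdk6* made up 38.8%, 37.3% and 35.8% of the summed *Cdk4* and *Cdk6* level per kilobase in the WT libraries and 38.2%, 40.9% and 42.0% in the DTRScxLin libraries. The groups overlapped by WT replicate 1 alone, and the means of 37.3% ± 1.48 and 40.4% ± 1.95 (SD, n = 3 each) differed by 3.11 percentage points (two-sided exact permutation p = 0.2, adjusted p = 0.5 over 5 shares). With the longest transcript the *Cdk6* share was 6.48% in WT and 7.33% in DTRScxLin tendons, and with the union of exons it was 8.29% and 9.34%.

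The promoters of the 3 genes whose groups did not overlap are shown with that of *Cdk4*, the closest relative of *Cdk6*, to set their makeup side by side. Each is a window of 300 bases around the start given by RefSeq (GRCm38.p6), 5′ to 3′ on the strand of the gene. They lie at chr5:3343643-3343942 on the plus strand for *Cdk6*, chr10:127063285-127063584 on the plus strand for *Cdk4*, chr7:38107441-38107740 on the minus strand for *Ccne1* and chr5:5380202-5380501 on the minus strand for *Cdk14*. Capitals mark the words described after them, searched on both strands.
Cdk6: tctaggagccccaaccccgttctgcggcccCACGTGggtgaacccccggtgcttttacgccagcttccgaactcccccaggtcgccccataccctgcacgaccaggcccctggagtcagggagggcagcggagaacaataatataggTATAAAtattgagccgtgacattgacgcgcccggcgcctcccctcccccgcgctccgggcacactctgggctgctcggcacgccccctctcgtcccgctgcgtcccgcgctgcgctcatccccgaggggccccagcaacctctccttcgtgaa
Cdk4: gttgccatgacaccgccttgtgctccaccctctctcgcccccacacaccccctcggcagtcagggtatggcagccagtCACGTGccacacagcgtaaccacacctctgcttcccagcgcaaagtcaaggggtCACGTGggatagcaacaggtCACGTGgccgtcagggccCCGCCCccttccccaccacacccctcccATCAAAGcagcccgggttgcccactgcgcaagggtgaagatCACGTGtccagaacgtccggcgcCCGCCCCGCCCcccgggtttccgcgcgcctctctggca
Ccne1: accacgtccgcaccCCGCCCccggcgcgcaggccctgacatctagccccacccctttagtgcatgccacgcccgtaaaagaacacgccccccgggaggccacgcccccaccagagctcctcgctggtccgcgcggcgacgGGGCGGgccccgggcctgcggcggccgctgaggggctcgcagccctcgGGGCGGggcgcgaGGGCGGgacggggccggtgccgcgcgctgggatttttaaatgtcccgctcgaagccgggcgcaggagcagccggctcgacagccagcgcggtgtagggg
Cdk14: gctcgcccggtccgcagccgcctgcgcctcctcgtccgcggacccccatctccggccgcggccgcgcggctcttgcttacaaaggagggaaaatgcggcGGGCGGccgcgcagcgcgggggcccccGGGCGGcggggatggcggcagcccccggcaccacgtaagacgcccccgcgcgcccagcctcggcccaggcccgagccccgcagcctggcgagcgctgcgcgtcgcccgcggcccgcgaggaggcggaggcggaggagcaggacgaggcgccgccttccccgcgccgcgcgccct
The GC box GGGCGG was found 4 times in the *Ccne1* window, 3 times in that of *Cdk4* (where 2 copies share a base), 2 times in that of *Cdk14* and 0 times in that of *Cdk6*, and 35.7% of 32851 RefSeq windows hold it. The E box CACGTG stood 4 times in the *Cdk4* window and 1 time in that of *Cdk6*, beside a share of 7.15% of windows that hold it. *Cdk6* also held 1 copy of the core promoter word TATAAA, which is in 13.6% of windows. *Cdk4* held 1 copy of the TCF/LEF word CTTTGAT, which is in 3.73% of windows. The E2F word TTTGGCGC, in 0.514% of windows, was in none of the 4. The same held for the second E2F word searched, TTTCGCGC, in 0.323% of windows. The word CCAAT, in 37.4% of windows, was in none of the 4 either. The GC content was 66.7% for *Cdk6*, 67.0% for *Cdk4*, 76.0% for *Ccne1* and 81.3% for *Cdk14*. RefSeq windows were matched for 6 of the 10 members and not for *Ccnd1*, *Ccnd2*, *Ccne2* and *Rb1*. These matches describe the letters and were not set against binding data.

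*Ccne1* and *Ccne2* encode the E-type cyclins, the partners of CDK2 at the entry into S phase. *Ccne1* had the fewest raw counts of the members, 88 to 248 per library. It stood at 140, 82.9 and 160 normalized counts in the WT libraries, against 256, 162 and 188 in the DTRScxLin libraries. Each DTRScxLin library was above each WT library, but by a margin that was lost under upper quartile or library size scaling. At 0.66 ± 0.30 its fitted log2 fold change was the highest of the 10 members, with a 95% interval of -0.05 to 1.37 and an edgeR adjusted p of 0.473. It was 0.43 without WT replicate 2, 0.42 with the proliferation markers as a covariate and 0.28 with the muscle level as a covariate.

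*Ccne2* stood at 271, 284 and 346 normalized counts in the WT libraries, against 332, 453 and 464 in the DTRScxLin libraries. DTRScxLin replicate 1, which had the most *Ccne1*, had the least *Ccne2* of its group and lay below WT replicate 3. The log2 fold change of *Ccne2* was 0.47 ± 0.19 (SE, 95% interval 0.04 to 0.91, edgeR adjusted p = 0.442). *Ccne1* thus took 64.0% of the summed E-type cyclin level per kilobase in DTRScxLin replicate 1 and 45.1% and 48.3% in replicates 2 and 3, beside 54.4%, 40.2% and 51.6% in the WT libraries. The difference of the means, 3.74 percentage points, had a two-sided exact permutation p of 0.7 and turned to -2.02 without DTRScxLin replicate 1 and to -0.53 without WT replicate 2.

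*Cdk2*, the kinase of the E-type cyclins, stood at 1111, 1201 and 1212 normalized counts in the WT libraries, against 1280, 1150 and 1497 in the DTRScxLin libraries. The WT libraries varied little (coefficient of variation 4.68%) and DTRScxLin replicate 2 lay among them. The log2 fold change was 0.16 ± 0.11 (SE, 95% interval -0.11 to 0.42, edgeR adjusted p = 0.620). It was 0.24 without DTRScxLin replicate 2, 0.05 without DTRScxLin replicate 3, 0.07 with the proliferation markers as a covariate and 0.03 with the muscle level as a covariate.

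*Cdk14*, the cyclin Y-dependent kinase of Wnt signalling, stood at 2692, 2387 and 2939 normalized counts in the WT libraries, against 4132, 3388 and 3770 in the DTRScxLin libraries. The groups were separate, with DTRScxLin replicate 2 the lowest of its genotype. The level was 1.41-fold higher (95% interval 1.18 to 1.68), which is 0.49 ± 0.11 on the log2 scale. The adjusted p was 0.275 by edgeR, 0.0177 by DESeq2 and 0.0442 by edgeR without DTRScxLin replicate 2. With the muscle level as a covariate the log2 fold change of *Cdk14* was 0.32. Its partners and relatives were measured as a list of 8 genes (*Ccny*, *Ccnyl1*, *Cdk15*, *Cdk16*, *Cdk17*, *Cdk18*, *Lrp5* and *Lrp6*), of which 5 were fitted higher and 3 lower, with a median log2 fold change of 0.02, or -0.02 without DTRScxLin replicate 1. None of the 8 reached an unadjusted p under 0.05, beside 11% of all genes. *Ccny*, which encodes the activating cyclin, had a log2 fold change of 0.02 and *Lrp6*, which encodes the substrate, one of -0.10. *Cdk15* (0.35 ± 0.19) and *Ccnyl1* (0.17 ± 0.10) were without overlap and higher, which is 2 of the 8 beside 8.96% of all genes. Their margins were narrow, at 210 against 214 normalized counts for *Cdk15* and 1057 against 1066 for *Ccnyl1*.

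*Rb1* encodes the pocket protein that the cyclin D and cyclin E kinases inactivate. It stood at 2390, 2299 and 1967 normalized counts in the WT libraries, against 1841, 2498 and 1835 in the DTRScxLin libraries. The highest and the lowest library were both DTRScxLin, and the groups overlapped. The log2 fold change was -0.11 ± 0.14 (SE, 95% interval -0.44 to 0.22, edgeR adjusted p = 0.805). DTRScxLin replicates 1 and 3, the libraries with the least *Rb1*, also had the smallest share of skeletal muscle transcripts, and DTRScxLin replicate 2, with the most *Rb1*, had 2.84% of its counts on muscle genes. The fitted log2 fold change of *Rb1* was 0.16 with the muscle level as a covariate and 0.01 with the proliferation markers as a covariate. With 1 library left out it was -0.27 without DTRScxLin replicate 2, -0.19 without WT replicate 3, -0.05 without WT replicate 1, -0.04 without DTRScxLin replicate 1 and -0.03 without DTRScxLin replicate 3. The part of muscle RNA in the *Rb1* values was not tested.

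**Figure D2:**
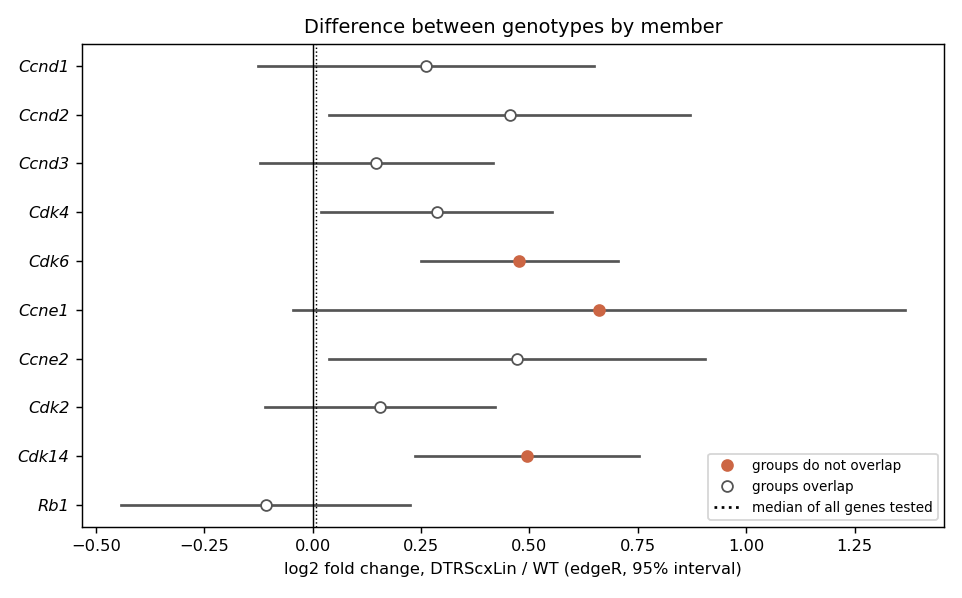
Log2 fold change of DTRScxLin over WT (x axis, edgeR) with its 95% interval for each of the 10 genes (y axis). Filled points mark the 3 genes whose groups do not overlap, and the intervals of *Cdk6* (0.25 to 0.70) and *Cdk14* (0.24 to 0.75) lie farthest from 0.

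The order of the libraries for the members was set beside their order for proliferation markers. The mean log2 CPM of the 10 members, relative to the WT mean, was -0.05, -0.14 and 0.18 in the WT libraries and 0.36, 0.30 and 0.34 in the DTRScxLin libraries. WT replicate 3 was the highest WT library for the members, and the DTRScxLin libraries lay close together. For 15 proliferation markers, most of which act in G2 and mitosis, the same mean was 0.43, -0.13 and -0.30 in the WT libraries and 0.99, -0.0023 and 0.93 in the DTRScxLin libraries. Here WT replicate 3 was the lowest library and DTRScxLin replicate 2 lay inside the WT range. All 15 markers were fitted higher, with a median log2 fold change of 0.71. An unadjusted p under 0.05 was reached by 5, beside 5.52% of all genes in that direction. Among the 5 were *Cdc20* (0.76 ± 0.29), an activator of the anaphase-promoting complex, the spindle motor gene *Kif11* (0.83 ± 0.32) and the spindle gene *Nusap1* (0.83 ± 0.30). The genotypes overlapped for each of the 15, and neither edgeR nor DESeq2 called any of them. With the muscle level as a covariate the median of the markers was 0.11 and 12 of the 15 were fitted higher. With the mean of these markers as a covariate, the members' median log2 fold change was 0.40. In that fit *Ccnd1* (0.39), *Ccnd2* (0.65), *Ccnd3* (0.26) and *Ccne2* (0.65) had larger values and *Cdk4* (0.24), *Cdk6* (0.41), *Ccne1* (0.42), *Cdk2* (0.07) and *Cdk14* (0.40) smaller ones than without the covariate.

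The number of members that separated the genotypes moved most without WT replicate 3. In its absence, 8 of the 10 members (all but *Cdk2* and *Rb1*) had each DTRScxLin library above each remaining WT library, beside 17.4% of all genes, and the same 8 had an unadjusted p under 0.05 by edgeR, beside 5.93% of all genes in that direction. The median log2 fold change of the members was then 0.50. Without DTRScxLin replicate 2, 5 members were separate and higher (*Cdk4*, *Cdk6*, *Ccne1*, *Cdk2* and *Cdk14*, beside 16.8% of all genes) and *Rb1* was separate and lower (beside 17.2%). No member other than *Cdk6* and *Cdk14* had an adjusted p under 0.05 in any of the 18 other fits.

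**Figure D3:**
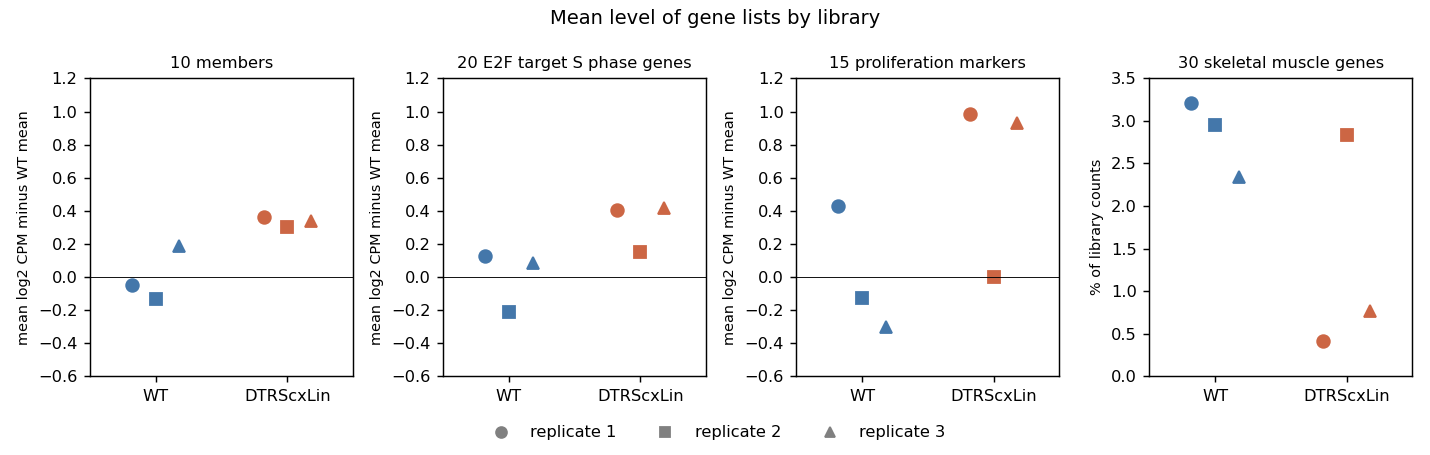
Mean log2 CPM relative to the WT mean (y axes of the first 3 panels) of the 10 members, 20 E2F target genes and 15 proliferation markers, and the share of counts on 30 skeletal muscle genes (last panel, %), in each library. DTRScxLin replicate 2 (square) lies with the other DTRScxLin libraries for the members, at 0.30, but within the WT range for the proliferation markers and for muscle.

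Levels of different genes were compared per kilobase of the median coding transcript in GENCODE vM21. In WT tendons the order was *Ccnd2* (172 ± 36.7 CPM per kilobase), *Cdk4* (100.4 ± 12.6), *Cdk6* (59.5 ± 5.45), *Ccnd3* (55.8 ± 8.36), *Cdk14* (29.5 ± 3.05), *Ccnd1* (23.2 ± 5.81), *Cdk2* (11.02 ± 0.516), *Rb1* (10.4 ± 1.04), *Ccne2* (2.18 ± 0.290) and *Ccne1* (2.13 ± 0.669; SD, n = 3 each). Neighbours whose WT libraries overlapped were *Cdk6* and *Ccnd3*, *Cdk14* and *Ccnd1*, *Cdk2* and *Rb1*, and *Ccne2* and *Ccne1*. In DTRScxLin tendons the first 8 genes had the same order, *Cdk6* (82.9 ± 5.33) was separate from *Ccnd3* (61.7 ± 2.37) and *Cdk14* (41.5 ± 4.10) from *Ccnd1* (27.8 ± 0.739), and the E-type cyclins were again last, at 3.37 ± 0.809 for *Ccne1* and 3.02 ± 0.533 for *Ccne2*, and overlapped, as did *Cdk2* and *Rb1*. The order rests on the length used, most of all for *Cdk6*, whose coding transcripts have a median of 697 bases and a maximum of 11525. With the longest transcript *Cdk6* was 8th in both genotypes, at 3.601 ± 0.330 in WT and 5.01 ± 0.322 in DTRScxLin tendons, and *Cdk4* was first. With each of 3 lengths, *Ccne1* and *Ccne2* were the lowest members and *Cdk4* and *Ccnd2* were among the highest 3.

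The partners of the members were measured as lists. In the list of 12 pocket protein, E2F and DP genes, 7 were fitted higher and 5 lower (median log2 fold change 0.11). An unadjusted p under 0.05 was reached by 1 of the 12, beside 11% of all genes. That gene was *Rbl1*, which encodes the pocket protein p107 and is itself an E2F target, at 564, 492 and 590 normalized counts in the WT libraries against 752, 630 and 721 in the DTRScxLin libraries (0.35 ± 0.12 on the log2 scale, edgeR adjusted p = 0.405). *Rbl2*, which encodes p130, had a log2 fold change of -0.08. Of 6 CDK activators, all were fitted higher (median 0.19) and 1 had an unadjusted p under 0.05, beside the same 11% of all genes. It was *Cdk7*, the catalytic subunit of the CDK-activating kinase, at 1468, 1441 and 1536 normalized counts in the WT libraries against 1783, 1842 and 1764 in the DTRScxLin libraries, without overlap (0.28 ± 0.08 on the log2 scale, edgeR adjusted p = 0.344). No other activator was without overlap, beside 8.96% of all genes higher without overlap.

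Of 20 E2F target genes of S phase, 19 were fitted higher, with a median log2 fold change of 0.33, and 7 had an unadjusted p under 0.05, all higher, beside 5.52% of all genes. The median was 0.19, with 15 fitted higher, when the muscle level was a covariate, and 0.20 without WT replicate 2. *Rrm1*, the large subunit of ribonucleotide reductase, stood at 2581, 2139 and 2195 normalized counts in the WT libraries, against 3212, 2617 and 3133 in the DTRScxLin libraries (0.37 ± 0.11 on the log2 scale). *Mcm2*, a subunit of the replicative helicase, was also without overlap (0.34 ± 0.14). In this list 7 of the 20 genes were higher without overlap, beside 8.96% of all genes. *Ccna2*, the cyclin that follows the E-type cyclins on CDK2, had a log2 fold change of 0.75 ± 0.25, and DTRScxLin replicate 2 lay within the WT range at 985 normalized counts against 1062 in WT replicate 1. Relative to the WT mean, the targets averaged -0.21 to 0.13 log2 CPM in the WT libraries and 0.40, 0.15 and 0.41 in the DTRScxLin libraries. edgeR gave an adjusted p under 0.05 to 0 of the 20 and DESeq2 to *Ccna2* alone, beside 1.12% of the genes DESeq2 called higher.

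The 7 CDK inhibitors were split. *Cdkn2a* and *Cdkn2b*, which encode INK4 inhibitors of CDK4 and CDK6, differed by 3.21 ± 0.59 and 1.24 ± 0.25 on the log2 scale. Counts were per gene, so which transcript of *Cdkn2a* differed was not tested. *Cdkn2a* stood at 13.2, 6.59 and 17.7 normalized counts in the WT libraries against 184, 47.8 and 116 in the DTRScxLin libraries, and *Cdkn2b* at 202 to 221 against 359 to 700, both without overlap. *Cdkn2c*, a further INK4 gene, had 0.37 ± 0.14 with overlap. The remaining INK4 gene, *Cdkn2d*, had 0.06 ± 0.14 with overlap, so the INK4 genes were not uniformly higher. DESeq2 called *Cdkn2a* and *Cdkn2b*, beside 1.12% of the genes it tested called higher, and edgeR called none of the 7. The same 2 were the only ones of the 7 without overlap, beside 8.96% of all genes higher without overlap. The CIP/KIP genes *Cdkn1a*, *Cdkn1b* and *Cdkn1c* were fitted at 0.0046, -0.05 and -0.0067 on the log2 scale, and the median of the 7 was 0.06. Of 13 genes of cyclin turnover, 8 were fitted higher and 5 lower (median 0.03). *Fbxo31*, an F-box protein that targets cyclin D1 for degradation, was the one with an unadjusted p under 0.05 and lower values. It stood at 1662, 1789 and 1366 normalized counts in the WT libraries, against 948, 1244 and 969 in the DTRScxLin libraries (-0.61 ± 0.15 on the log2 scale, edgeR adjusted p = 0.296 and 0.0204 from DESeq2). *Cul4b*, a cullin scaffold, was the one with an unadjusted p under 0.05 and higher values (0.22 ± 0.08 on the log2 scale, without overlap). Over all genes, 5.45% were lower and 5.52% higher with an unadjusted p under 0.05. In this list 2 genes were higher without overlap, beside 8.96% of all genes, and 1 was lower, beside 7.85%.

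Cyclins and CDKs outside the 10 members were listed too. In each list that follows, genes with an unadjusted p under 0.05 stand beside 11% of all genes, both directions together. The median over the 17 tested other cyclins was 0.09 on the log2 scale, 12 were fitted higher, and those with an unadjusted p under 0.05 were *Ccna2* and *Ccnb2* (0.82 ± 0.28), which act from S phase to mitosis, and, lower, *Ccnk* (-0.28 ± 0.12), a partner of the transcriptional kinases. The 15 other CDKs had a median of 0.05 (-0.0030 without DTRScxLin replicate 1 and -0.0091 with the muscle covariate), with 11 fitted higher, and *Cdk1* (0.75 ± 0.31) and *Cdk7* had an unadjusted p under 0.05. The transcription factors and cofactors that induce D-type cyclins numbered 18, with a median of 0.06, which was -0.03 without WT replicate 3, -0.02 without DTRScxLin replicate 1 and -0.03 with the muscle covariate. *Myc* had a log2 fold change of 0.06 and *Ctnnb1*, which encodes beta-catenin, one of 0.14. *Mycl* was the gene of this list with an unadjusted p under 0.05, at -1.21 ± 0.51, at 319, 218 and 85.2 normalized counts in the WT libraries against 68.0, 69.8 and 131 in the DTRScxLin libraries, where WT replicate 3 overlapped the DTRScxLin libraries.

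**Figure D4:**
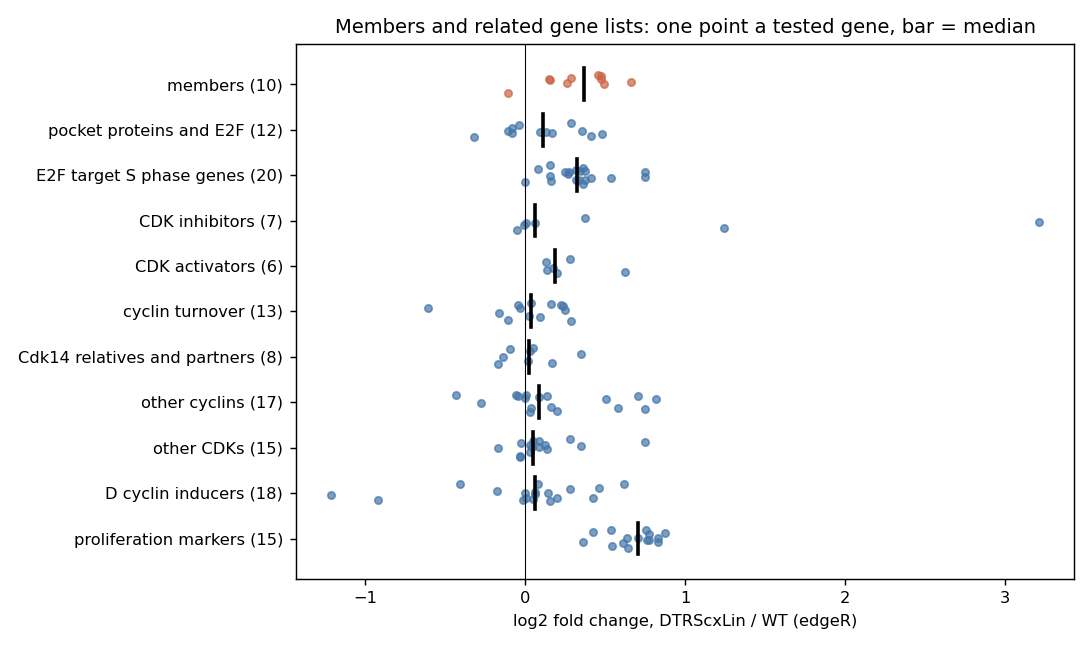
Log2 fold change of DTRScxLin over WT (x axis, edgeR) for the 10 members and for each tested gene of 10 related lists (y axis, number of genes in brackets), with bars at the medians. The medians are 0.37 for the members, 0.33 for the E2F target genes and 0.71 for the proliferation markers, an order that turned to 0.25, 0.19 and 0.11 with the muscle level as a covariate. That covariate nearly follows genotype, apart from DTRScxLin replicate 2. The 2 CDK inhibitors farthest to the right are *Cdkn2b* and *Cdkn2a*.

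*Cdk6* and *Cdk14* had similar values over the libraries. By the root mean square distance of log2 CPM, centred on the WT mean, *Cdk14* was 6th of 14408 genes in likeness to *Cdk6* over the 6 libraries, and *Cdk6* was 7th in likeness to *Cdk14*. The next member was *Cdk4*, at rank 236 from *Cdk6* and 165 from *Cdk14*. Both genes had been drawn by the study for a higher level in the DTRScxLin libraries, so the likeness is in part set by that choice. The genes nearest to *Cdk6* were *Armcx4* (distance 0.0620 on the log2 scale), *Socs2* (0.0670), *Stk39* (0.0733), *Zfp268* (0.0733) and *Milr1* (0.0750), and those nearest to *Cdk14* were *Tspan6* (0.0524), *Pdia5* (0.0624), *Pgap1* (0.0638), *Gpr176* (0.0675) and *Socs2* (0.0686). For *Ccnd2* they were *Kcnab1* (0.0535), *Acsl3* (0.0821), *Lyplal1* (0.0956), *Shc2* (0.101) and *Triqk* (0.111).

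*Cdk6* and *Cdk14* both lie on chromosome 5, with 13 tested genes between them in the RefSeq order. Of these 13, 7 were fitted higher and 6 lower, with a median log2 fold change of 0.06. Those with an unadjusted p under 0.05 were *Ankib1* (0.22 ± 0.09), *Cyp51* (0.68 ± 0.14), an enzyme of cholesterol synthesis, and *Fzd1* (0.44 ± 0.18), a Wnt receptor gene next to *Cdk14*. All 3 were higher in each DTRScxLin library than in each WT library, and their adjusted p-values from edgeR were 0.439, 0.274 and 0.447. Over all genes tested, 5.52% were higher with an unadjusted p under 0.05 and 8.96% were higher without overlap. The nearest tested neighbour of *Cdk6*, *Fam133b*, had 0.07 ± 0.08 on the log2 scale. Of the next 5 tested genes on the other side of *Cdk14*, *Gm8773* (1.44 ± 0.32) and *Steap2* (0.30 ± 0.10) were likewise without overlap and higher, whereas *Cldn12*, the nearest, had -0.01 ± 0.12.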

How the data were processed

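RNA was sequenced from 1 FDL tendon per library (200 ng total RNA, oligo-dT selection, single-end reads), with 3 libraries per genotype grouped by the labels. The authors trimmed the reads with FastP, ran featureCounts and deposited whole-number counts of each gene, not normalized. A deposited signal table gave normalized values, and its columns were checked to equal those counts over 1 DESeq2 size factor per library (0.973 to 1.06). The submitters' processing notes name DESeq2 1.22.1. Aligner, genome build, annotation and strand setting are not given in the sources used here, so genes were taken by symbol, and GENCODE vM21 gave lengths and RefSeq (GRCm38.p6) gene order and promoters. Exons of *Ccnd1*, *Ccnd2*, *Ccnd3*, *Ccne2*, *Cdk2*, *Cdk4*, *Cdk6* and *Rb1* overlap genes on the opposite strand, so their counts carry that uncertainty, and *Ccnd3* has a processed copy listed apart.

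The fits used edgeR 4.0.16 under R 4.3.3 (filterByExpr, TMM, robust quasi-likelihood fit, genotype as the single term), limma 3.58.1 and DESeq2 1.42.0. Standard errors were taken as the size of the fold change (log2) over the root of its F statistic, and 95% intervals use the moderated degrees of freedom. Of 53819 genes, 17496 were tested, with Benjamini-Hochberg adjustment and a threshold of 0.05. Shares within a family were tested with exact permutation tests. All 10 members were named, and from each related list up to 3 genes a direction with the smallest unadjusted p under 0.05. Other list genes given with values (*Ccny*, *Ccnyl1*, *Cdk15*, *Lrp6*, *Rbl2*, *Cdkn1a*, *Cdkn1b*, *Cdkn1c*, *Cdkn2d*, *Myc*, *Ctnnb1*) and the neighbours on chromosome 5 were chosen after their values were seen. The members and lists were chosen with earlier results of these data known. Libraries of a genotype differed far beyond sampling noise (chi-square of 40.5 to 205 per degree of freedom), so none was a duplicate, and n = 3 limits the precision.

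Alternatives were DESeq2, limma-voom, RLE, upper quartile and library size scaling, no filter, a minimum of 10 counts in all libraries, a block for the replicate number, leaving out each library, limma on log2(value + 1) of the deposited normalized values, and covariates for skeletal muscle, *Xist* and proliferation markers. For the order of levels the longest transcript and, chosen after seeing the data, the union of exons replaced the median length. For the shares both were chosen after seeing the data.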

Additional observations from a re-analysis of the deposited data

How the results depend on the processing

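Of 180 values of the members under 18 other fits, 174 kept their direction and their side of the threshold. *Cdk6* (0.48 by DESeq2, 0.52 without DTRScxLin replicate 2) and *Cdk14* (0.49 and 0.57) passed the threshold in the same 2 fits, and *Rb1* changed direction with the muscle covariate (0.16) and the proliferation covariate (0.0119). The number of genes called was 0 in the report, 466 by DESeq2, 83 without a filter on low counts, 1 with the replicate block, and 0 to 544 with 1 library left out, with calls only without DTRScxLin replicate 2. The members called numbered 2 by DESeq2 and 0 to 2 with 1 library left out. Members without overlap numbered 3 to 8 with 1 library left out. The 8 came without WT replicate 3, when 17.4% of all genes were higher without overlap, against 8.96% with all 6 libraries. The median log2 fold change of the members was 0.29 to 0.50 with 1 library left out. The deviations of same-numbered WT and DTRScxLin libraries from their group means had correlations of -0.19, -0.15 and -0.68. No library correlated best with its own number, so the numbers were not taken as pairs. With the replicate block no member was called. The share of *Ccne1* in the E-type cyclins reversed, with differences from -2.02 percentage points without DTRScxLin replicate 1 to 7.41 with 1 library left out. Ranks per kilobase depended on length: with the longest transcript 3 members in WT and 2 in DTRScxLin tendons kept their rank, and with the union of exons 2 and 0. The medians of the related lists were refitted with 1 library left out and with the muscle covariate. With 1 library left out they ran from 0.16 to 0.25 for CDK activators, -0.0030 to 0.0926 for other CDKs, 0.20 to 0.38 for E2F targets, 0.55 to 0.99 for proliferation markers, -0.03 to 0.13 for D cyclin inducers, -0.02 to 0.07 for *Cdk14* relatives, 0.03 to 0.14 for CDK inhibitors, 0.02 to 0.08 for cyclin turnover, 0.03 to 0.13 for other cyclins and 0.06 to 0.16 for pocket proteins and E2F. With the muscle covariate they were, in that order, 0.22, -0.0091, 0.19, 0.11, -0.03, 0.03, 0.14, 0.10, 0.03 and 0.07. The cause of these changes was not tested, and the muscle covariate nearly follows genotype, apart from DTRScxLin replicate 2. *Ccne1* had the fewest raw counts of the members, at 88 to 248, and an effect of depth on single members was not tested.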
